A study of Mus musculus with 32 samples.

Results

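Translation elongation and initiation factors were followed in Lgr5-EGFP+ cells of murine colonic organoids, as 10 genes whose messenger RNAs are known to begin with a terminal oligopyrimidine (TOP) tract and which are not ribosomal proteins. The genes were Eef1a1, Eef1b2, Eef1g and Eef2 of the elongation machinery, Eif3e and Eif3f of initiation factor 3, Pabpc1, Rack1, Naca and Tpt1. They were chosen from a table of 23517 genes by name, with earlier results of these data known, so their levels and their change with bethanechol (Bch) are described without a test of their own, and all 10 were found. Crypts of the proximal colon were taken from mice that carry Lgr5-EGFP-IRES-CreERT2, an allele that makes EGFP from the Lgr5 locus, grown as organoids in L-WRN medium, and sorted for EGFP-positive cells. Each of 8 mice gave cells from untreated organoids and from organoids that received Bch, a muscarinic receptor agonist, at 250 nM in fresh medium over 4 days, so that every control carried the same alleles and medium. Mice BR1 to BR4 are labelled as male, with sorted cells as the source and RNA from a Micro kit. Mice BR7 to BR10 carry no sex label, name colonic organoids as the source and a Mini kit, and were taken as female because the series counts 4 female and 4 male mice. Sex, kit and labelled source therefore cannot be told apart, and the groups are named here by mouse numbers. Ages are described only as matched.

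Each mouse and treatment was measured as 2 technical replicates (TR1 and TR2), 32 libraries of 267146 to 2119938 molecules counted by unique molecular identifiers (UMIs), with a median of 973685. Over most genes the technical replicates differed by less than sampling noise, with a spread of 0.675 to 0.857 counting standard deviations, against 1.17 to 1.67 between different mice, and they were summed and counted as 1 sample. The 16 sums held 557512 UMIs in untreated BR3, the fewest, to 4050342 in Bch-treated BR8. The 10 genes made up 0.585% to 0.998% of the UMIs of a sum. Levels of genes below are CPM, the UMIs of a gene relative to all UMIs of a sum, normalized by TMM, which scales libraries by the genes that change least. Values of marker genes and marker lists are CPM without TMM. Lgr5 was detected in every sum at 12.9 to 41.3 CPM, while the 4 of 8 non-epithelial markers listed in the table together reached at most 2.36 CPM. Summed stem cell markers lay at 541 to 1004 CPM, colonocyte markers at 446 to 1358 and goblet markers at 3585 to 12498. With no EGFP-negative or unsorted cells to compare, these values do not show how pure the sort was. The p-values of comparisons between groups measure only the spread between these mice, and those of TR2 against TR1 only the spread between pairs of libraries.

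In the growth state of a cell, the kinase mTORC1 sets how strongly TOP messenger RNAs are translated, and the RNA-binding protein LARP1 holds their capped pyrimidine tract when mTORC1 is low. Ribosomal proteins and the factors described here share this tract, so that the machinery of protein synthesis is made together. Control acts mostly on translation, whereas the values below are amounts of messenger RNA. Crypt base cells that carry Lgr5 divide often.

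The tract gives the group its name, so the sequence around the RefSeq start was read for the 7 members with a RefSeq promoter in the table used here (build GRCm38.p6). Each of the following lines shows 30 bases of the transcribed strand, 15 before the start and 15 from the start on, with capitals for the longest run that opens with C and goes on with at least 4 bases that are each C or T.
Eef1a1, chr9:78481710-78481739, minus strand: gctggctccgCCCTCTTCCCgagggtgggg
Eef1b2, chr1:63176816-63176845, plus strand: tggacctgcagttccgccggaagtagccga
Eef2, chr10:81176616-81176645, plus strand: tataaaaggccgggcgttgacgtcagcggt
Eif3f, chr7:108934400-108934429, plus strand: tctgttctaggCTCTCTCTCTTTCTCggca
Tpt1, chr14:75845241-75845270, plus strand: gtcaccgctgacgacagttccgggggagcc
Rack1, chr11:48800345-48800374, plus strand: cggaggccgCTCTTTCTTTTTCTCCacagg
Naca, chr10:128035331-128035360, plus strand: gcaactcgttCTCTTaaagaggaaacccgg
Eef1g, Eif3e and Pabpc1 are named only.

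A run of this kind lay in the window of 4 of the 7 genes. It was longest in Rack1, with 16 bases, and in Eif3f, with 15 bases, and shorter in Eef1a1 with 10 and Naca with 5. In all 4 genes it started 4 to 6 bases before the RefSeq start and ran across it or up to it. The annotations disagree on these starts: the start of the gene in GENCODE M21 lies inside the window shown for Eef1b2, Eef2 and Eif3f and outside it for Eef1a1, Naca, Rack1 and Tpt1, and the Naca window lies wholly before the GENCODE gene. The same search found a run in 36.4% of all 32851 promoter windows of this length and in 60.3% of the 73 windows of ribosomal protein genes. On the opposite strand a run was found in 40.8% of all windows and in 6 of the 7 genes. For Eef1b2, Eef2 and Tpt1 the letters searched were not in this window of the transcribed strand, and nothing follows from that about their true start.

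The first comparison set TR2 against TR1 in the same cells, which asks how far a level depends on the replicate it was read from. Whether the authors processed both replicates with the same reference and rules is not given in the sources used here, so a difference of the libraries and a difference of their processing cannot be told apart. Tpt1, which encodes the translationally controlled tumour protein, a small growth-associated protein, stood apart from the other 9 genes. Over all 16 libraries of each replicate, 398 UMIs of Tpt1 were counted in TR1 and 11882 in TR2, 29.9 times as many. A TR1 library held 7 to 63 UMIs of the gene with a median of 22, and a TR2 library held 226 to 1643 with a median of 675. In CPM, TR1 ranged from 13.2 to 36.6 and TR2 from 508 to 970, so that the ranges did not overlap and TR2 was higher in 16 of 16 pairs. TR2 supplied 96.8% of the UMIs behind the summed level of Tpt1.

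**Figure D1:**
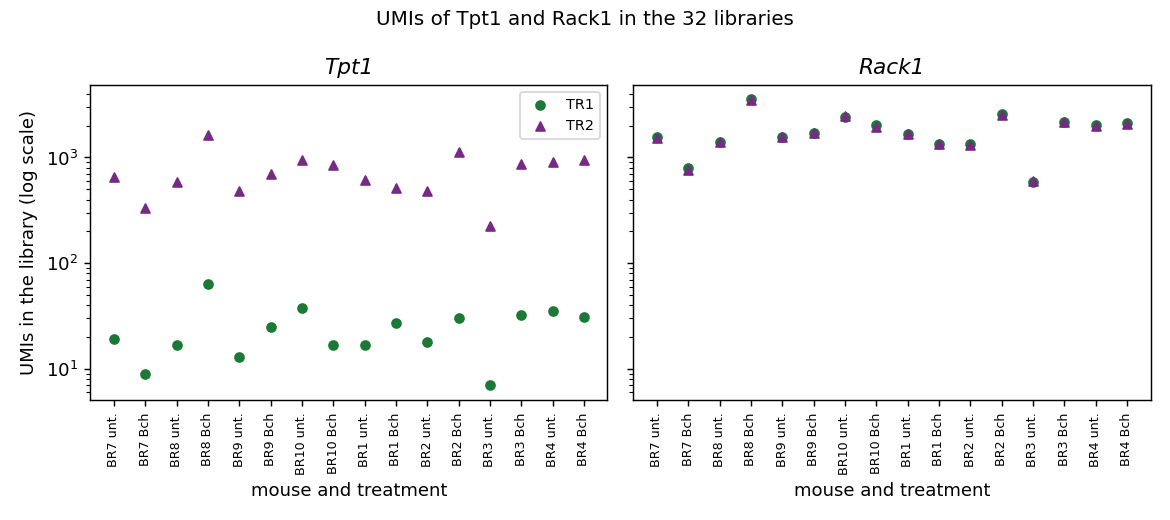
UMIs of Tpt1 (left) and Rack1 (right) on a log axis in each of the 32 libraries, ordered by mouse and treatment ("unt." is untreated), with TR1 as green circles and TR2 as purple triangles. For Tpt1 the TR1 libraries lie between 7 and 63 UMIs and the TR2 libraries between 226 and 1643, while for Rack1 the symbols of each pair lie nearly on each other.

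Among all 7261 genes tested over the 16 pairs, 4.49% passed an adjusted p of 0.05 in edgeR's quasi-likelihood test with the pair as a block, 224 higher and 102 lower in TR2. Of the 10 translation genes, 6 passed and all of these were higher in TR2. Beside Tpt1 the largest difference belonged to Naca, the alpha subunit of the complex that binds nascent chains at the ribosome, with 13644 UMIs in TR1 and 20670 in TR2. Its log2 ratio was 0.65 ± 0.118 (SD, n = 16 pairs; adjusted p = 7.39e-14 in edgeR), higher in 16 of 16 pairs. Eef1g, the gamma subunit of the elongation factor 1 complex, had 13145 and 16101 UMIs and a log2 ratio of 0.32 ± 0.0413 (SD, n = 16 pairs), also higher in every pair. Pabpc1, which binds the poly(A) tail and takes part in initiation, had 4503 and 5194 UMIs (0.23 ± 0.0956 on the log2 scale, SD), and Eef1a1, which brings aminoacyl-tRNA to the ribosome, had 10393 and 11892 (0.21 ± 0.0643, SD). Eif3e differed least among those that passed, with a log2 ratio of 0.085 ± 0.0608 (SD, n = 16 pairs), higher in 14 of 16 pairs. These p-values compare libraries of the same cells, which vary less than counting noise, and not mice. Without the block, 3 of these 6 genes passed (Eef1g, Tpt1 and Naca), among 185 genes in all.

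The other 4 genes gave nearly equal counts in both replicates. Rack1, a scaffold protein of the small ribosomal subunit, had 28923 UMIs in TR1 and 28437 in TR2. Eif3f had 15769 and 15500, Eef1b2, which reloads eEF1A with GTP, had 12914 and 12946, and Eef2, which moves the ribosome along the messenger RNA, had 11659 and 11762. Their mean log2 ratios lay between -0.0031 and 0.031, and none passed the threshold. For Tpt1 the mean was 4.85 ± 0.304 (SD, n = 16 pairs; adjusted p = 4.93e-42 in edgeR), with single pairs from 4.20 to 5.49.

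**Figure D2:**
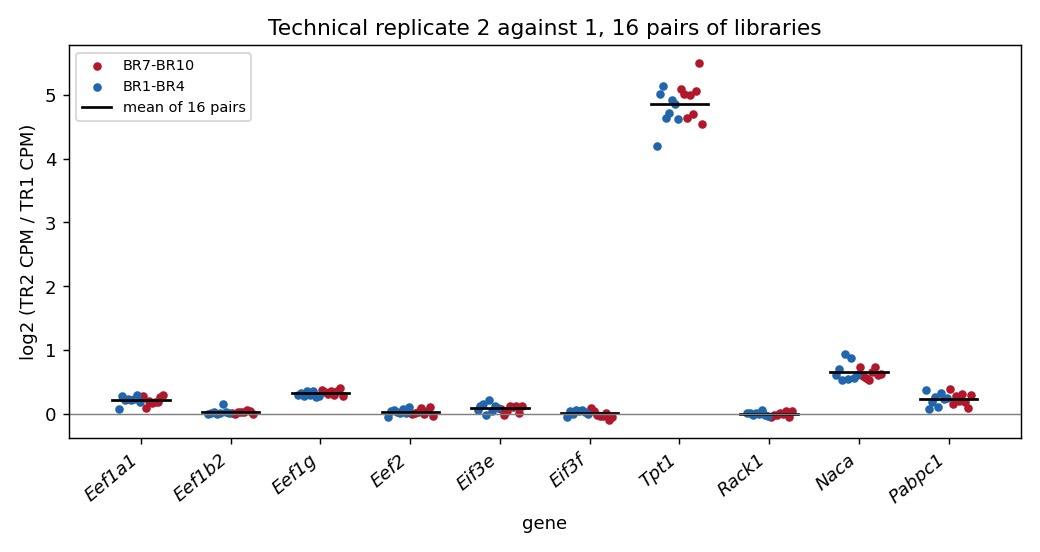
The log2 ratio of TR2 over TR1 (CPM with a prior count of 2) for each translation gene, with 1 point per pair of libraries (16 pairs), red for BR7 to BR10 and blue for BR1 to BR4, and a bar at the mean. Tpt1 lies between 4.20 and 5.49, Naca near 0.65, and Rack1, Eef2, Eef1b2 and Eif3f lie around 0.

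The wider machinery was set beside these genes with lists chosen by role. Of the 78 ribosomal protein genes tested, 69 passed and all were higher in TR2, with a median log2 difference of 0.86, against a median of -0.0086 over all genes. Of 13 other TOP messenger RNAs tested, 4 passed, all higher, namely Btf3, the beta subunit of the same nascent chain complex as Naca (4647 and 7890 UMIs), Hnrnpa1 (876 and 1565), Nap1l1 (2244 and 2858) and Npm1 (14740 and 15780), the last named because it completes the count. Of 25 other initiation factors, 3 passed, all higher, namely the helicase gene Eif4a1, Eif1 and Eif2s2, and of 11 other subunits of eIF3, 2 passed, Eif3j1 and Eif3m. None of 6 other elongation factors, 4 release and recycling factors or 14 regulators of mTORC1 and TOP messenger RNAs passed.

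Reads that match more than 1 gene were looked at in the same genes, because how such reads were counted is not given in the sources used here. In windows of 65 bases, the length of a read, from the last 500 bases of the annotated protein-coding transcripts, 57.1% of the windows of Eef1a1 also occurred in transcripts of other genes, 15 of them, mostly pseudogenes. The share was 55.0% for Naca, 27.5% for Eif3e, 22.3% for Tpt1, 9.84% for Pabpc1, 8.60% for Eef1b2 and 6.65% for Eef1g. It was 0% for Eef2, Eif3f and Rack1, which are among the 4 genes with equal replicates. Eif4a1, Hnrnpa1 and Eif3j1 also had 0% and were higher in TR2 by 1.26, 1.79 and 1.87 times in UMIs. Counts of genes with shared windows are uncertain, and the part of shared windows in the differences between replicates was not tested.

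Pseudogene rows that carry the name of a member held few UMIs. Tpt1-ps3, which shares 22.3% of the windows of Tpt1, had 325 UMIs in TR1 and 237 in TR2. The other 6 rows named after Tpt1 held between 1 and 28 UMIs in TR1 and between 3 and 26 in TR2. Eef1a1-ps1 had 32 and 35 UMIs, Eef1a1-ps2 had 2 and 0, and Eef2-ps2 had 16 and 15. Only Tpt1-ps3 in TR1 came near the count of its member, which had 398 UMIs there.

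The untreated organoids of both sets were compared next, as a description of the level from which Bch acted. In bulk cells, fewer cells of a type and less RNA per cell cannot be told apart. Among 9159 genes tested between the 4 untreated mice of each set, 1.64% passed an adjusted p of 0.05, 89 higher and 61 lower in BR7 to BR10, and 2 of the 10 translation genes passed, Eef2 and Pabpc1. The count of 150 genes fell by more than 1.5 times without BR2 (74), BR3 (97), BR4 (80), BR7 (93), BR8 (97) or BR9 (92), and both genes passed in each of these fits.

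Eef2 had 580 CPM in untreated BR7, 608 in BR8, 456 in BR9 and 532 in BR10. In the other set it had 817 CPM in BR1, 778 in BR2, 943 in BR3 and 984 in BR4. The groups did not overlap, with 544 ± 66.5 (SD, n = 4) in BR7 to BR10 and 881 ± 98.5 (SD, n = 4) in BR1 to BR4. The log2 difference of BR7 to BR10 against BR1 to BR4 was -0.71 (standard error 0.12, adjusted p = 0.00117 in edgeR's quasi-likelihood test). Its values over 15 alternatives ran from -0.77 to -0.63.

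Pabpc1 had 226 CPM in untreated BR7, 254 in BR8, 164 in BR9 and 217 in BR10, and 356 in BR1, 314 in BR2, 335 in BR3 and 373 in BR4. These groups did not overlap either, with 215 ± 37.6 (SD, n = 4) against 344 ± 25.7 (SD, n = 4). The log2 difference was -0.70 (standard error 0.13, adjusted p = 0.00196 in edgeR), between -0.78 and -0.58 over the alternatives. TR1 and TR2 taken alone each called Eef2 and Pabpc1.

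**Figure D3:**
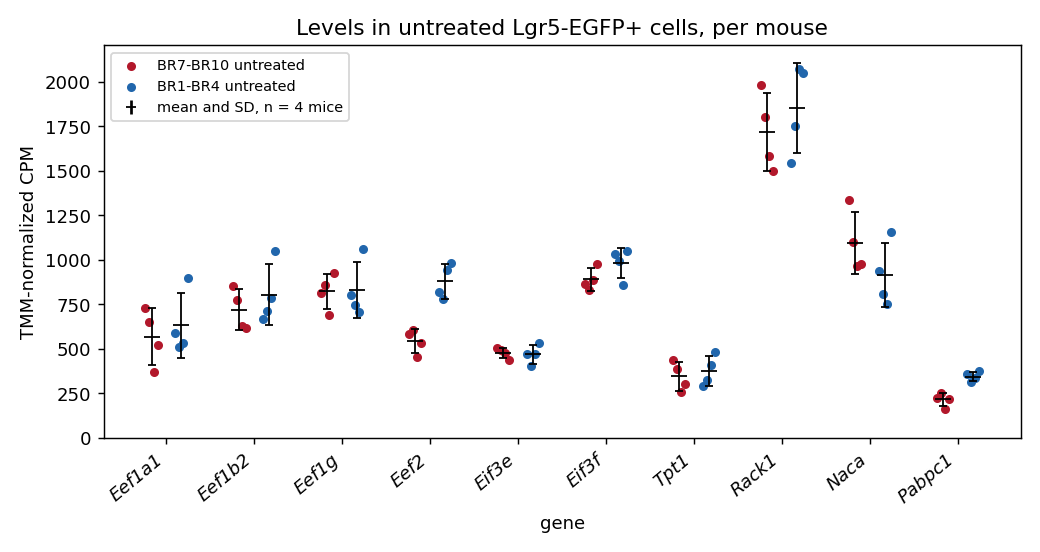
TMM-normalized CPM (linear axis from 0) of each translation gene in untreated cells, with 1 point per mouse, red for BR7 to BR10 and blue for BR1 to BR4, and the mean with its SD (n = 4 mice) in black. The sets lie apart for Eef2 (456 to 608 against 778 to 984 CPM) and Pabpc1 (164 to 254 against 314 to 373 CPM).

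The other 8 genes did not pass. Their log2 differences ranged from -0.18 for Eef1b2 and -0.17 for Eef1a1 to 0.24 for Naca. With a mouse left out, Eef1b2 went from -0.27 without BR7 to -0.020 without BR4, Eef1a1 from -0.32 without BR7 to 0.045 without BR4, and Naca from 0.13 without BR7 to 0.37 without BR4. Eef1a1 ranged from 368 to 732 CPM in untreated BR7 to BR10 and from 508 to 899 in BR1 to BR4. The standard error of its log2 difference, 0.23, was the widest of the 10. Eif3e, a subunit of the eIF3 complex that prepares the small subunit for initiation, was at 478 ± 27.5 CPM (SD, n = 4) in BR7 to BR10 and 469 ± 53.1 (SD, n = 4) in BR1 to BR4, a log2 difference of 0.011 (standard error 0.12) that went from -0.053 without BR2 to 0.077 without BR4. Rack1 was at 1718 ± 218 and 1855 ± 253 CPM, and Eif3f at 890 ± 62.4 and 983 ± 85.8.

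The lists of other genes of the pathway are given beside the 1.64% of all genes that passed between the untreated sets, and nothing is read from their small counts. Of 11 other eIF3 subunits tested, 2 passed, both lower in BR7 to BR10, namely Eif3c (181 ± 21.5 against 300 ± 19.6 CPM; log2 difference -0.75, adjusted p = 0.000404 in edgeR) and Eif3b (79.7 ± 15.1 against 121 ± 16.8 CPM; -0.61, adjusted p = 0.0374 in edgeR). Of 25 other initiation factors, only Eif4g2 passed (140 ± 25.5 against 196 ± 13.1 CPM; -0.50, adjusted p = 0.0484 in edgeR). Among 18 regulators of mTORC1 and TOP messenger RNAs, only Eif4ebp1 passed, which encodes a repressor of the cap-binding protein that mTORC1 inactivates (483 ± 72.5 against 781 ± 98.4 CPM; -0.70, adjusted p = 0.00195 in edgeR). No gene passed among 78 ribosomal protein genes, of which 64 were higher in BR7 to BR10 with a median log2 difference of 0.14. Over all genes 47.9% were higher and the median was -0.016. The median of the 10 translation genes was -0.15, and it went from -0.24 without BR7 to -0.051 without BR9 and -0.0064 without BR4. None of 8 other elongation factors, 4 release and recycling factors or 13 other TOP messenger RNAs passed. The summed stem cell markers also lay apart between the sets, at 607 to 733 CPM in untreated BR7 to BR10 and 862 to 1004 in BR1 to BR4, as did the low summed tuft cell markers, at 1.88 to 5.55 and 5.81 to 11.6 CPM, and their part in these differences was not tested.

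The response to Bch in BR7 to BR10 was then described. In edgeR's quasi-likelihood test with the mouse as a block, 0% of 9515 genes passed an adjusted p of 0.05, 360 genes had an unadjusted p under 0.05, and DESeq2 also called 0. None of the 10 translation genes passed. With single mice left out, the count of genes was 3 without BR8, 4 without BR9 and 1 without BR10, with 0 translation genes among them. Of the 10 genes, 4 were higher and 6 lower with Bch, with a median log2 fold change of -0.042, against -0.0022 over all genes, of which 49.5% were higher. Without BR7 the median of the 10 genes was 0.12 and the values of Eef1b2 (0.14), Eef1g (0.098), Naca (0.056) and Rack1 (0.020) lay above 0, and without BR9 that of Eef1a1 lay at -0.099.

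Eef1a1 showed the widest spread of ratios in this set. Its level went from 732 CPM untreated to 490 with Bch in BR7, from 651 to 736 in BR8, from 368 to 558 in BR9 and from 520 to 553 in BR10. It was thus lower in 1 mouse and higher in 3, and the treated and untreated levels overlapped. The fitted log2 fold change was 0.078 (standard error 0.15), and the ratios of single mice ran from -0.58 to 0.60.

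Pabpc1 had the largest fitted change of the 10 in BR7 to BR10, 0.24 on the log2 scale (standard error 0.14), which became 0.14 without BR9 and 0.38 without BR10. It went from 226 to 229 CPM in BR7, from 254 to 367 in BR8, from 164 to 236 in BR9 and from 217 to 199 in BR10, higher in 3 of 4 mice with overlapping groups. Eef2 (0.14, standard error 0.14), Tpt1 (0.12, standard error 0.14) and Eef1a1 were the other genes with a value above 0. The lowest values were -0.11 for both Eif3e and Eif3f (standard errors 0.14 and 0.15). Leaving out a mouse moved these values by over 1.5 times as well: Eef2 lay at 0.034 without BR9 and 0.21 without BR10, Tpt1 at 0.041 without BR9 and 0.25 without BR7, Eif3e at -0.21 without BR10 and -0.054 without BR8, and Eif3f at -0.17 without BR9 and -0.040 without BR10. In every gene the levels of treated and untreated mice overlapped in this set.

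Among the remaining genes of this set, Eef1g and Naca are given mouse by mouse. Eef1g went from 815 to 542 CPM in BR7, from 858 to 897 in BR8, from 689 to 916 in BR9 and from 928 to 808 in BR10. Naca went from 1338 to 977 CPM in BR7, from 1100 to 1031 in BR8, from 962 to 890 in BR9 and from 978 to 1250 in BR10. Both genes thus moved in opposite directions in different mice, up in 2 of 4 for Eef1g and up in 1 of 4 for Naca. Eef1b2 had 720 ± 114 CPM untreated and 700.2 ± 84.0 with Bch (SD, n = 4), and Rack1 1718 ± 218 and 1642 ± 73.1.

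The mice of this set did not move together. In BR7, 8 of the 10 genes were lower with Bch and the median log2 ratio was -0.27, whereas the median was 0.051 in BR8, 0.23 in BR9 and 0.14 in BR10. The 78 ribosomal protein genes had medians of -0.39 in BR7, -0.068 in BR8, 0.00078 in BR9 and 0.42 in BR10. BR7 was the lowest mouse for both groups of genes. Summed goblet and stem cell markers were each higher with Bch in 2 of 4 mice of this set, and the summed tuft list was lower with Bch in 4 of 4 (1.88 to 5.55 CPM untreated, 0.941 to 4.69 with Bch), and their part in these values was not tested. The tuft list rests on few UMIs, from 1 for Il25 to 67 for Dclk1 over all 16 sums. Dclk1 alone was higher with Bch in BR7 and BR8 and lower in BR9 and BR10.

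In BR1 to BR4, the fitted change of each of these genes with Bch lay above 0. Of 9509 genes tested, 0.021% passed an adjusted p of 0.05 (2 genes, both higher, Rn7sk and Rps24-ps3, which are named after their values were seen), 734 had an unadjusted p under 0.05, and DESeq2 called 14. All 10 translation genes had a positive log2 fold change and 0 passed, with a median of 0.21, against 0.0012 over all genes, of which 50.3% were higher. Since the genes were chosen with this contrast in view, nothing is read from these counts. The count of 2 genes became 0 without BR1 or BR2, 5 without BR3 and 19 without BR4, with 0 translation genes among them. Without BR2 the values of Eef2 (-0.029) and Pabpc1 (-0.0078) lay below 0, and without BR1 they were 0.099 and 0.18.

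Eef1a1 had the largest value, a log2 fold change of 0.52 (standard error 0.11). Its level was 587 CPM untreated and 666 with Bch in BR1, 508 and 970 in BR2, 532 and 946 in BR3, and 899 and 1007 in BR4. It was higher with Bch in 4 of 4 mice, with log2 ratios between 0.16 and 0.93, and the groups overlapped because untreated BR4 lay above treated BR1. Eef1a1 was the 1 translation gene among the 14 that DESeq2 called and among the 9 that edgeR called in TR1 alone. Without a filter on low counts edgeR called 88 genes, with Eef1a1, Eef1g and Naca among them.

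The other subunits of the elongation factor 1 complex had smaller values. Eef1g went from 804 to 970 CPM in BR1, from 744 to 1087 in BR2, from 708 to 1127 in BR3 and from 1059 to 1021 in BR4, a log2 fold change of 0.35 (standard error 0.10) that was positive in 3 of 4 mice. Eef1b2 had a value of 0.26 (standard error 0.094) and was higher in 4 of 4 mice, with 804 ± 171 CPM untreated and 962 ± 154 with Bch (SD, n = 4). BR4 moved least in each of these genes. Eef2, which acts in the following step of elongation, had a log2 fold change of 0.038 (standard error 0.091) and was higher in 2 of 4 mice.

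Naca, which stands at the exit of the ribosome, went from 940 to 1014 CPM in BR1, from 809 to 1101 in BR2, from 752 to 1183 in BR3 and from 1156 to 1228 in BR4. The fit gave 0.32 on the log2 scale (standard error 0.097), with higher levels in 4 of 4 mice and overlapping groups. Because TR2 held more of its UMIs, the replicates were read apart. The mean of the log2 ratios was 0.46 ± 0.374 (SD, n = 4) in TR1 and 0.24 ± 0.223 in TR2, above 0 in 4 of 4 mice in both.

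The initiation factor subunits had smaller values. Eif3f was the only gene of the 10 whose groups did not overlap in this set, at 1034, 991, 860 and 1049 CPM untreated and 1122, 1114, 1140 and 1095 CPM with Bch in BR1, BR2, BR3 and BR4. The share of all genes whose groups lay apart was not counted, so nothing is read from this. The log2 fold change of Eif3f was 0.18 (standard error 0.091) and 0.12 without BR3, and the lowest untreated level belonged to BR3, which had the fewest UMIs of all sums. Eif3e had a log2 fold change of 0.21 (standard error 0.096), and 0.12 without BR2, with 469 ± 53.1 CPM untreated and 544 ± 52.2 with Bch (SD, n = 4). Its log2 ratios were 0.0032 in BR1, 0.50 in BR2, 0.33 in BR3 and 0.033 in BR4, and in TR2 alone that of BR1 was -0.040, so that 3 of 4 were above 0 there. Pabpc1 had 0.055 (standard error 0.096) and Rack1 0.084 (standard error 0.090), with Rack1 higher in 4 of 4 mice by log2 ratios of at most 0.16.

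Tpt1 is given with its replicates apart, because TR1 held few of its UMIs. In the sums its log2 fold change in BR1 to BR4 was 0.20 (standard error 0.093) and 0.12 without BR2, higher in 4 of 4 mice, with 288 and 331 CPM in BR1, 327 and 445 in BR2, 411 and 457 in BR3, and 480 and 485 in BR4, untreated and treated. In TR2 alone the log2 ratios were 0.15, 0.45, 0.15 and 0.027, a mean of 0.19 ± 0.181 (SD, n = 4). In TR1 alone they were 1.06, -0.053, 0.39 and -0.21, a mean of 0.30 ± 0.567 (SD, n = 4), above 0 in 2 of 4 mice. The summed ratios of Tpt1 thus rest on TR2.

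**Figure D4:**
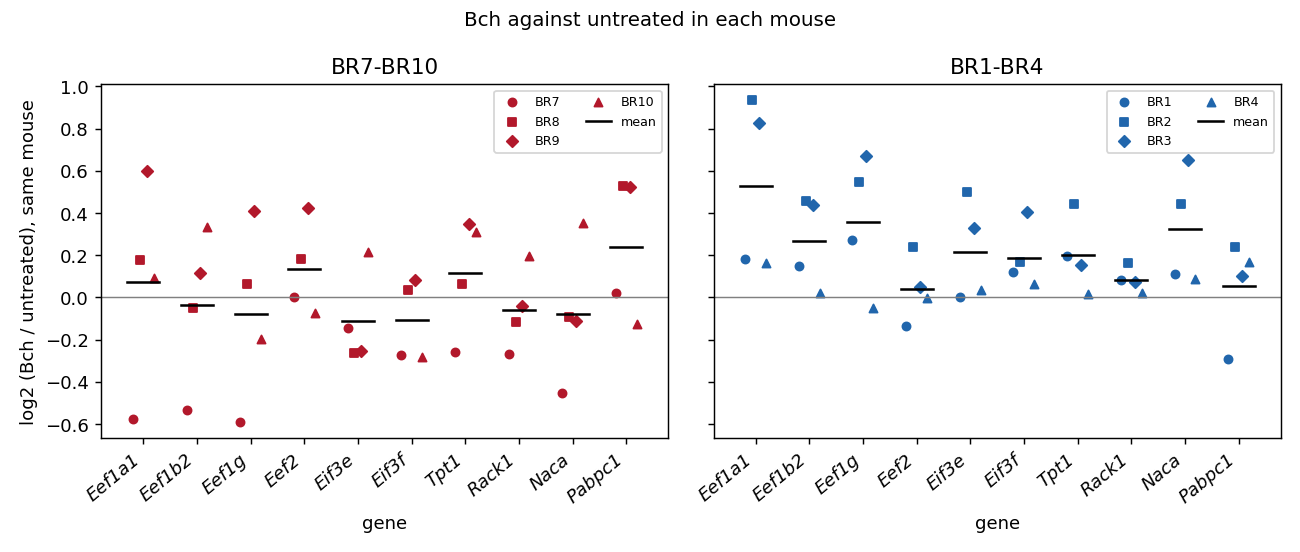
The log2 ratio of Bch over untreated CPM (prior count of 2) within each mouse, for BR7 to BR10 (left, red) and BR1 to BR4 (right, blue), with a marker shape per mouse and a bar at the mean of 4 mice. In BR1 to BR4 every mean lies above 0, up to 0.53 for Eef1a1, while in BR7 to BR10 the means lie between -0.11 and 0.24.

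Mouse by mouse, BR2 and BR3 carried most of the difference in this set. The median log2 ratio of the 10 genes was 0.11 in BR1, 0.44 in BR2, 0.37 in BR3 and 0.028 in BR4. All 10 genes were higher with Bch in BR2 and BR3, and 8 of 10 in BR1 and BR4. The 78 ribosomal protein genes had medians of 0.21, 0.47, 0.53 and -0.021 in the same mice, and 74 of the 78 had a positive fitted fold change, with a median of 0.32. The untreated sum of BR3 was the shallowest of all, at 557512 UMIs. With Bch, Lgr5 went from 37.8 to 17.7 CPM in BR1 and from 41.3 to 16.4 in BR2. It went from 35.9 to 26.6 in BR3 and from 28.8 to 29.4 in BR4. The summed stem cell markers were higher with Bch in 2 of 4 mice, and the part of these markers was not tested.

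**Figure D5:**
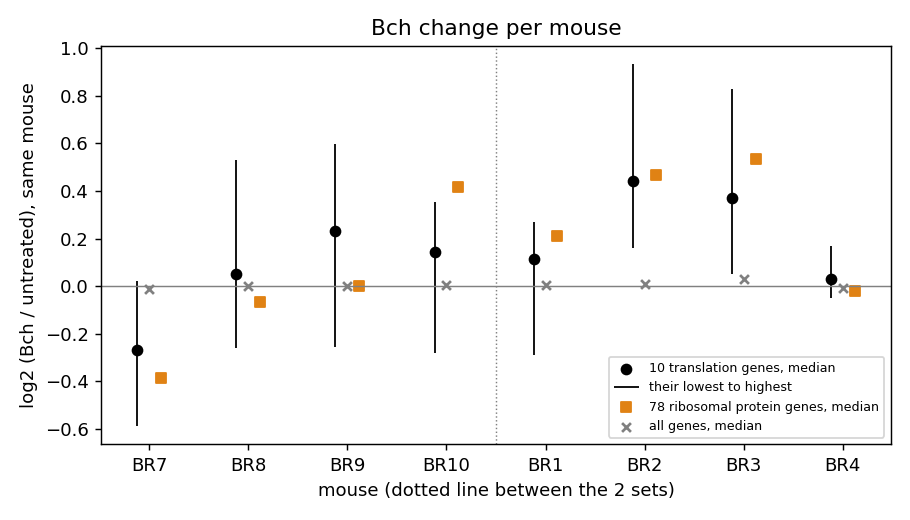
For each mouse, the median log2 ratio of Bch over untreated of the 10 translation genes (black circle, with a line from their lowest to their highest gene), of 78 ribosomal protein genes (orange square) and of all genes (grey cross). The translation genes range from -0.27 in BR7 to 0.44 in BR2, the ribosomal protein genes from -0.39 in BR7 to 0.53 in BR3, and all genes lie near 0.

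Lists of related genes in BR1 to BR4 were described in the same way, and no gene of any of them passed. Of 13 other TOP messenger RNAs tested, 11 were above 0, with a median of 0.15, among them Btf3 at 0.36 (standard error 0.11). Of 12 other eIF3 subunits, 10 were above 0, with a median of 0.12, Eif3m at 0.32 (standard error 0.099) and Eif3b at -0.22 (standard error 0.14). Initiation factors of other families were split, 12 of 25 above 0 with a median of -0.0052, with Eif1 at 0.22 and Eif5 at -0.22. Of 8 other elongation factors 4 were above 0, of 4 release and recycling factors 2, and of 18 regulators of mTORC1 and TOP messenger RNAs 9. In BR7 to BR10 the other TOP messenger RNAs were above 0 in 2 of 13 genes with a median of -0.059, the other eIF3 subunits in 4 of 12, the other elongation factors in 3 of 8, the other initiation factors in 13 of 25, the release and recycling factors in 3 of 4 and the regulators in 12 of 18, and no gene of these lists passed. The smallest unadjusted p-values there belonged to Eif1b (log2 fold change -0.39, standard error 0.17), Rps6kb2 (-0.68, standard error 0.28) and Ddit4 (0.32, standard error 0.15), the last encoding an inhibitor of mTORC1. Sums of markers of other cells moved in BR1 to BR4. The summed goblet list was lower with Bch in 4 of 4 mice (4326 to 6875 CPM untreated, 3662 to 5251 with Bch). Its largest gene, Spink4, was lower in each mouse, from 4206 to 2657 CPM in BR3. Muc2 and Tff3 were higher in BR2, BR3 and BR4 and lower in BR1, so the sum does not speak for each goblet gene. The summed genes induced by dissociation were also lower in 4 of 4 mice (524 to 775 CPM untreated, 484 to 591 with Bch). As in BR7 to BR10, so was the summed tuft list, which holds few UMIs (5.81 to 11.6 CPM untreated, 2.94 to 6.47 with Bch). Within it Trpm5 was higher in BR1, BR3 and BR4 and lower in BR2. The part of these markers in the values above was not tested.

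Whether the responses of the sets differed was tested as an interaction over all 16 sums. In edgeR 0% of 10280 genes passed, 451 had an unadjusted p under 0.05 and DESeq2 called 0. None of the 10 translation genes passed. Their differences of log2 fold change, BR7 to BR10 minus BR1 to BR4, had a median of -0.29, against -0.0016 over all genes. They were below 0 in 8 of 10 genes, while 49.8% of all genes lay above 0. The lowest were -0.44 for Eef1a1 (standard error 0.21), -0.43 for Eef1g (standard error 0.19) and -0.39 for Naca (standard error 0.18), while Eef2 (0.096, standard error 0.17) and Pabpc1 (0.19, standard error 0.17) lay above 0. The other TOP messenger RNAs were below 0 in 12 of 13 genes and the ribosomal protein genes in 73 of 78, with 0 genes passing in both lists. This comparison uses the same sums as the fits of each set. The genes and lists were chosen with earlier results of these data known, so nothing is read from these counts.

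With all 8 mice in a single fit, a fit added after the data were seen, 0% of 9366 genes passed in edgeR, 510 had an unadjusted p under 0.05, and 0 translation genes passed. The 10 genes had log2 fold changes from 0.017 for Rack1 to 0.30 for Eef1a1 (standard error 0.12), with a median of 0.12, against 0.0052 over all genes. Tpt1 had 0.16 (standard error 0.081) and Pabpc1 0.15 (standard error 0.086), the genes next to Eef1a1 in size. The mice of this fit are those of the separate sets.

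Likeness among the members was described across the 16 sums, centred within each set, as a description of points that differ in depth and come in pairs of 1 mouse. The median of the 45 pairwise correlations was 0.57, and 41 were above 0. Eef2 and Pabpc1 were the closest pair with 0.87, and Eif3f and Rack1 the least alike with -0.18. Eef1a1 followed the mean of the other 9 genes most closely (0.96) and Eif3f least (0.26). The pair of Eef2 and Pabpc1 was also the pair that differed between the untreated sets, although the centring removes the difference between sets from the correlation.

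Of the genes that are no members, those most like the mean of the 10 were Mir703 (0.97), Rpsa (0.97), Rpsa-ps10 (0.96), Gm6218 (0.92) and Paics (0.92), over 16 sums. Of the 50 genes most like them, 21 were on the list of 78 ribosomal protein genes, which made up 0.759% of the 10270 genes ranked. The list was drawn up by a pattern of names that does not take in Rps3a1, a ribosomal protein gene at rank 29 of the 50. The row named Mir703 does not stand for a measured microRNA arm. Of the 90 windows of 20 bases in its annotated transcript of 109 bases, 58 also lie in transcripts of Eef1a1, and it held 4209 UMIs in TR1 and 4100 in TR2. Reads of this row and of Eef1a1 may therefore not be separable, and Eef1a1 is reported as uncertain to that extent.

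The members lie apart in the genome, by the GENCODE M21 annotation of GRCm38. Eef1a1 is on chromosome 9 from 78478449 to 78489151, Eef1b2 on chromosome 1 from 63176825 to 63180486, Eef1g on chromosome 19 from 8967041 to 8978479, and Eef2 on chromosome 10 from 81176631 to 81182498. Eif3e is on chromosome 15 from 43250058 to 43282719 and Pabpc1 on the same chromosome from 36595661 to 36609668. Eif3f is on chromosome 7 from 108934417 to 108942951, Tpt1 on chromosome 14 from 75845093 to 75848525, Rack1 on chromosome 11 from 48800332 to 48806434, and Naca on chromosome 10 from 128035575 to 128048637. All are protein-coding genes. Genes on the opposite strand overlap the ends of Eef1b2 (Ndufs1, 775 UMIs in TR1 and 768 in TR2) and Rack1 (Trim41, 70 and 67), with far fewer UMIs than the members, and small nucleolar RNA genes lie within Eef1b2, Eef2, Rack1 and Tpt1. The microRNA gene Gm26377 lies within Eef1a1 on the same strand and also shares 58 of the 90 windows of Mir703. Gm27390, annotated as another type of RNA, lies within Eef1b2.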

How the data were processed

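Colonic organoids of 8 mice were sorted for Lgr5-EGFP+ cells, untreated and after Bch. The authors primed cDNA with barcoded oligo-dT carrying UMIs, aligned reads with the Drop-seq pipeline to GRCm38 with GENCODE M25 by the study's methods (the labels' processing notes name only GRCh38, a human build, for these mouse samples), and deposited counts of UMIs for each gene in each library, not normalized. The use of strand and of reads matching several genes is not given in the sources used here. Of 23517 rows, 1520 are blank in TR2 and hold at most 12 UMIs over all TR1 libraries, and were read as 0. Counts were taken per library and summed over TR1 and TR2, which counts molecules present in both replicates again, and averaged counts were an alternative added after the data were seen. A gene with 0 UMIs could be present at up to 3 UMIs of a sum, the 95% limit for counting error only.

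In R 4.3.3, edgeR 4.0.16 was run with filterByExpr, TMM and the robust quasi-likelihood test, with Benjamini-Hochberg adjustment over all genes at 0.05, and the steps were tested on simulated data. Bch was fitted in each set with the mouse as a block, the difference of responses over all 16 sums, the untreated sets without a block, and TR2 against TR1 with the pair as a block. Standard errors are the log2 fold change over the square root of F, and mouse ratios use a prior count of 2. The pairing comes from the labels, where a number is 1 mouse. Deviations of paired sums from their group means had correlations of 0.24, 0.033, 0.061 and 0.084 in BR1, BR2, BR3 and BR4 and of 0.071, 0.15, 0.0031 and -0.020 in BR7, BR8, BR9 and BR10. DESeq2 1.42.0, other normalizations, no filter, each replicate alone and each mouse left out were alternatives.

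The members and all lists were chosen with earlier results of these data known, as were the markers. Named are all members, up to 3 genes per list, direction and comparison that passed (otherwise the gene of smallest p, of which some are given), pseudogene rows named after members, and the 5 genes most like the members. Promoters are RefSeq's and transcripts GENCODE M21, both of GRCm38, and M21 is not the release used for the counts.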

Additional observations from a re-analysis of the deposited data

How the results depend on the processing

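The medians of the 10 translation genes moved by less than 1 SD between mice or pairs in all 52 alternative fits, and the members' values with Bch in all 240. With 4 mice per set, leaving out 1 mouse can hardly move a value by 1 SD, so these counts say little about stability. Of the 240 values, 7, each with a mouse left out, changed sign (Eef1a1, Eef1b2, Eef1g, Naca and Rack1 in BR7 to BR10, Eef2 and Pabpc1 in BR1 to BR4). The median in BR7 to BR10 changed sign in 1 of 12 alternatives, 0.12 without BR7. Counts of genes also changed. In BR1 to BR4 the 2 genes became 0 without the mouse block, 14 with DESeq2, 88 without the filter, 9 in TR1 alone and 0 to 19 with a mouse left out. In BR7 to BR10 leaving out a mouse gave 0 to 4 genes and the block changed no call (0 without it). For the difference of responses 1 gene passed without the filter and 0 without the block. Between untreated sets 234 genes passed without the filter and 74 to 210 with a mouse left out, and Eef2 and Pabpc1 passed in all 15 alternatives. TR2 against TR1 called 185 genes without the pair as a block, and Eef1a1, Eif3e and Pabpc1 were no longer among them. The cause was not tested. Among members that had not passed, log2 differences near 0 changed sign in 9 of 150 values between untreated sets (Eef1a1, Eef1g, Eif3e and Tpt1) and in 6 of 130 between replicates, 0 of them called (Eif3f and Rack1). The 4 mice per set, and few UMIs of Tpt1 in TR1, limit what could be seen.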
